A study of Mus musculus with 8 samples.

Results

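The acetylcholine receptor of muscle and the proteins that gather it at the endplate were followed through 9 genes: the receptor subunit genes Chrna1, Chrnb1, Chrng, Chrnd and Chrne, and Lrp4, Musk, Dok7 and Rapsn. They were found as the non-control probes whose gene name on the array is one of these symbols. All 9 were on the array, with 11 probes (2 each for Chrna1 and Musk), among 21393 genes with a name. Of these, 8 of the 9 and 13493 of all genes passed the filter on dim probes and were tested, and Dok7 did not pass.

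The receptor of muscle is an ion channel built from alpha, beta and delta subunits together with a gamma subunit in fetal and denervated muscle or an epsilon subunit at the mature endplate. Nerve-derived agrin binds Lrp4, which activates the kinase Musk; Dok7 binds and sustains Musk, and rapsyn, the product of Rapsn, holds the receptors in clusters. The subunit genes are switched on when myoblasts differentiate, through E-box motifs bound by myogenic factors such as myogenin, and nuclei under the nerve keep some of them on through an N-box motif.

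The cells were satellite cells, the muscle stem cells, sorted from skeletal muscle of C57BL/6 mice labelled as 3 months of age and male, either from basal muscle (4 samples) or on day 3 after injury with the myotoxin cardiotoxin (4 samples). All 8 samples carry the label WT in the names of the deposited data columns. The sort kept integrin alpha 7 and removed cells with CD31, CD45, CD11b or Sca1. The labels call the samples biological replicates and say nothing of pooled animals, so each p-value measures the spread between these 8 samples. Each sample's RNA was read on 1 single-colour array, and values are the log2 of the processed spot signal after subtraction of the array's 75th percentile.

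The arrays had 50.1% to 56.7% of their spots well above background, and the 75th percentile lay at 104 to 132 signal units. Pax7, the defining transcription factor of satellite cells, was above background on all 8 arrays and lower after injury by 2.95 on the log2 scale (SE 0.21, limma adjusted p = 1.75e-05). All basal samples were on 1 slide and all injured samples on another, so slide and injury cannot be told apart. All mice were labelled male, but the female RNA Xist read 6.37 to 6.57 on injured 2, 3 and 4, where no gene of the Y chromosome list was above background. Xist read 1.72 on injured 1 and 3.85, 2.15, -1.12 and -4.97 on basal 1 to 4, and the Y-linked gene Ddx3y was above background on these 5 arrays (-2.19 on injured 1 and -0.89 to -0.07 on basal arrays). Basal 1 and basal 2 also stood apart in endothelial genes: Pecam1, the gene of CD31, read 3.20 and 2.87 there against -2.20 and -3.22 on basal 3 and 4, and Tie1 3.00 and 2.70 against -5.25 and -2.36. The differences of the tested endplate genes are therefore also given without these 2 arrays. Over all genes tested, limma called 4779 higher after injury (35.4%) and 3336 lower (24.7%) at an adjusted p under 0.05, with a median difference of 0.17. In the authors' deposited table of normalized values that split was 3151 higher and 785 lower, and the median over all genes was 0.44.

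Among the 8 genes tested, 4 were higher on injured arrays (Chrna1, Chrng, Chrnd and Lrp4), where 35.4% of all genes were, and 2 were lower (Chrnb1 and Musk), where 24.7% were. Chrne and Rapsn were not called. Chrnd passed the filter on dim probes through the injured arrays alone, and Chrne through the basal arrays alone. The median difference of the 8 was 0.75. The arrays of both groups lay apart for 5 of them (Chrna1, Chrnb1, Chrng, Chrnd and Lrp4), against 57.2% of all genes tested, so separation alone was common on these arrays. In sorted cells, fewer cells of a type and less RNA per cell cannot be told apart.

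**Figure D1:**
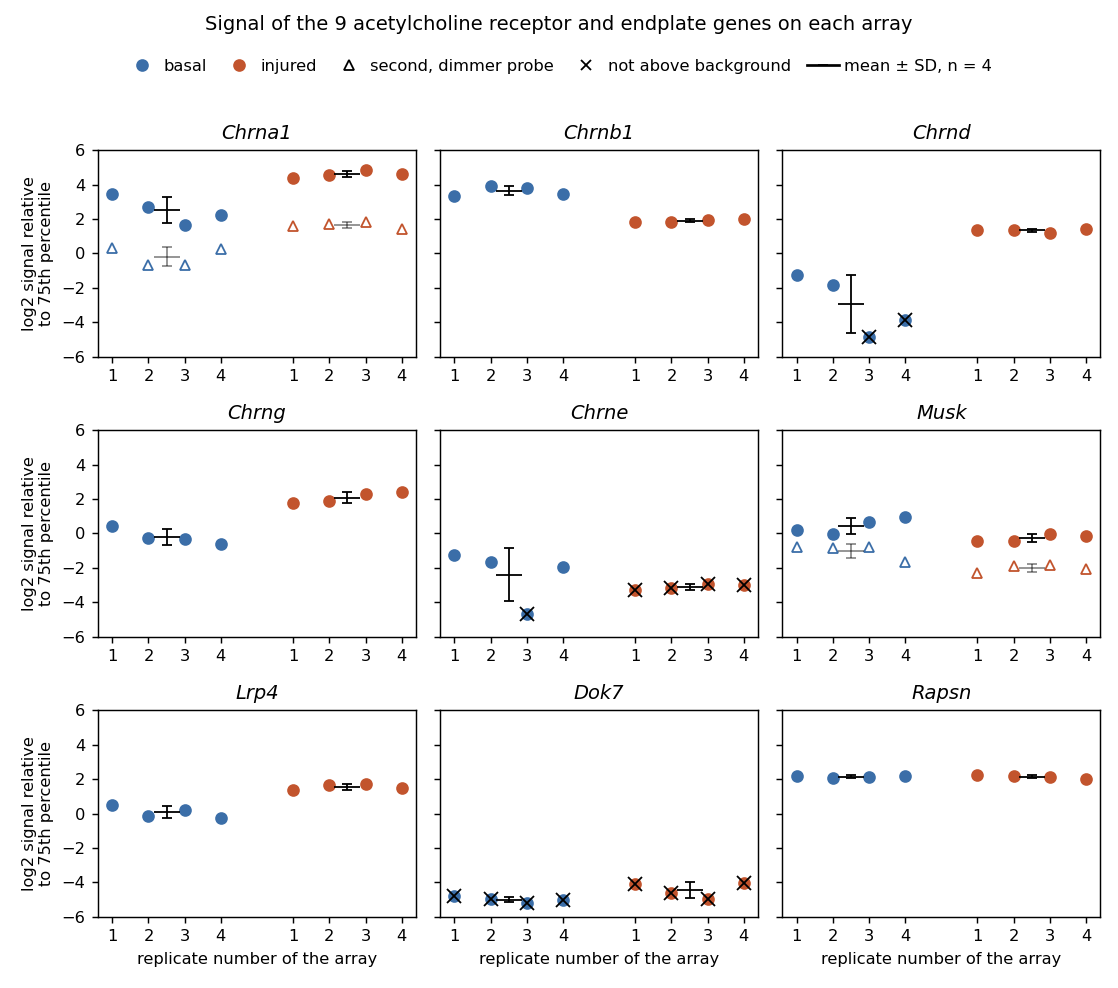
Each panel shows 1 gene: the log2 signal relative to the array's 75th percentile (vertical axis) on the 4 basal and 4 injured arrays (horizontal axis, by replicate number). Filled circles are the probe that stood for the gene, open triangles a second probe, crosses mark values not well above background, and bars are the mean ± SD (n = 4). Chrna1, Chrng, Chrnd and Lrp4 lie higher on all 4 injured arrays than on any basal array and Chrnb1 lower, while Rapsn stays between 2.03 and 2.25 on all 8.

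Chrna1 encodes the alpha subunit, which carries most of the acetylcholine binding site and is present in both the fetal and the adult receptor. Its brighter probe (mm9 chr2:73404112-73404171, minus strand) read 3.44, 2.70, 1.67 and 2.23 on basal 1 to 4 and 4.40, 4.56, 4.87 and 4.62 on injured 1 to 4. Every injured array was above every basal array, and the basal arrays were the more scattered (SD 0.75 against 0.20). The difference was 2.10 ± 0.34 (SE, limma adjusted p = 0.000886), a 4.30-fold rise. A second probe of the same transcript (chr2:73401389-73401448) gave 0.31, -0.68, -0.69 and 0.27 on basal arrays and 1.60, 1.73, 1.84 and 1.41 on injured arrays. Both probes thus separated the groups in the same direction, the second by 1.84 ± 0.27 (adjusted p = 0.00058 in the limma fit over single probes, where 56.9% of probes were called).

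Chrng encodes the gamma subunit, the one that marks the fetal receptor. Its probe (chr1:89106072-89106353, plus strand) read 0.45, -0.28, -0.33 and -0.63 on basal arrays and 1.77, 1.89, 2.28 and 2.40 on injured arrays. The groups did not overlap, and the lowest injured array stood above the highest basal array. The rise was 2.28 ± 0.25 (limma adjusted p = 0.000129), which is 4.87-fold.

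Chrne encodes the epsilon subunit, which takes the place of gamma in the adult receptor. Its probe (chr11:70429215-70429274, minus strand) read -1.27, -1.66, -4.68 and -1.93 on basal arrays and -3.30, -3.17, -2.95 and -2.96 on injured arrays. It was well above background on basal 1, 2 and 4, but not on basal 3 or on any injured array, so the groups overlapped through basal 3 alone. The measured means were -2.39 on basal and -3.10 on injured arrays, and no fold is given, since 5 of the 8 values were not above background. The difference of -0.71 ± 0.66 was not called by limma (adjusted p = 0.378). It was called without basal 3 (-1.47, adjusted p = 0.000547), and its sign turned without basal 1 and basal 2 (0.21) and in the authors' deposited table (0.11).

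The gamma probe is shown because this subunit marks the fetal receptor, and the beta probe because its gene fell while alpha rose. The 60 bases of the gamma probe map to a span of 282 bases and those of the beta probe to 569, so neither is 1 continuous stretch of the genome. Both sequences are those of the array design, written in lower case with no part marked.
Chrng probe: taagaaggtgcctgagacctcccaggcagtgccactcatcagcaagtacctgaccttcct
Chrnb1 probe: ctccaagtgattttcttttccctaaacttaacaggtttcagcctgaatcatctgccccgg

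Chrnd encodes the delta subunit, shared by the fetal and the adult receptor. Its probe (chr1:89096585-89096644, plus strand) read -1.27, -1.82, -4.83 and -3.84 on basal arrays and 1.36, 1.38, 1.20 and 1.44 on injured arrays. The injured arrays were close together, while on the basal side only basal 1 and basal 2 were above background. The difference of 4.29 ± 0.71 (limma adjusted p = 0.00101) corresponded to 19.5-fold and rests in part on values not above background. It was 5.68 without basal 1 and basal 2, 2.04 and 2.00 after normexp background correction with the 75th percentile or with quantile normalization, and 2.85 in the authors' deposited table, with the call kept in each.

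Chrnb1 encodes the beta subunit, also part of both receptor forms, and was the only receptor subunit called lower. Its probe (chr11:69598674-69599242, minus strand) read 3.36, 3.90, 3.81 and 3.46 on basal arrays and 1.84, 1.84, 1.93 and 2.01 on injured arrays. No injured array came near the basal range, and the injured arrays differed among themselves by less than the basal ones (SD 0.083 against 0.26). The fall was -1.73 ± 0.15 (limma adjusted p = 4.63e-05), or 3.32-fold. In the authors' deposited table the difference was -0.82 and the call was lost (adjusted p = 0.124).

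Chrna1 and Chrnb1 therefore moved in opposite directions within the same samples. Their difference on each array, which no scaling of a whole array can change, grew by 3.83 from basal to injured arrays. For Chrng against Chrne the change within arrays was 2.99, with Chrne not above background on any injured array. These pairs were picked after the values had been seen, so the changes are given as a description, with no test.

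**Figure D2:**
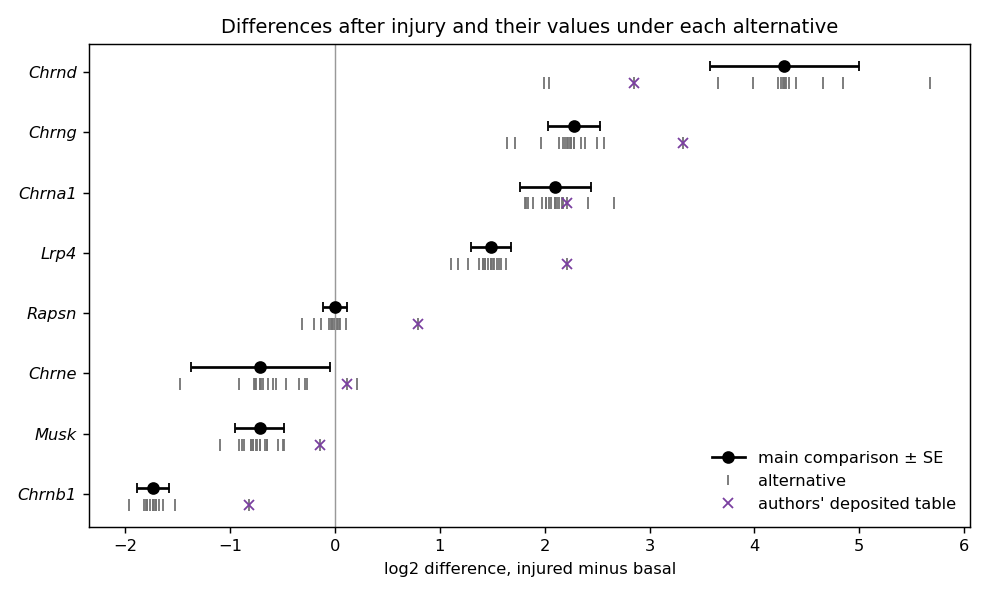
Black points are the log2 differences of the 8 tested genes, injured minus basal, with the standard error of the limma fit. Grey ticks are the same difference under each alternative and purple crosses mark the authors' deposited table. Chrnd, Chrng, Chrna1 and Lrp4 stay above 0 in every alternative drawn and Chrnb1 and Musk below 0, while Rapsn and Chrne take both signs.

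The start regions of the subunit genes hold the motifs named above in different numbers. Of the 9 genes, 6 have a promoter in the RefSeq table (build GRCm38.p6), and the 250 bases before the start were searched on both strands for the E-box CANNTG, its form CAGCTG, and the N-box CCGGAA. The CAGCTG form is one of the sequences that CANNTG covers, so each such match is also counted as an E-box. Of 32817 promoter windows of this length, 66.2% held an E-box, 13.0% held CAGCTG, 1.26% held it at 2 or more places, and 12.0% held the N-box.

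The windows of the 4 subunit genes with an entry are printed so that 2 genes that rose (Chrna1 and Chrng) can be compared with the gene that fell (Chrnb1) and with Chrne. Capitals mark every E-box or N-box match, each sequence runs 5′ to 3′ along the gene, and the last base lies just before the start. The windows are chr2:73580339-73580588 (minus strand) for Chrna1, chr1:87205561-87205810 (plus) for Chrng, chr11:69795938-69796187 (minus) for Chrnb1 and chr11:70619195-70619444 (minus) for Chrne.
Chrna1: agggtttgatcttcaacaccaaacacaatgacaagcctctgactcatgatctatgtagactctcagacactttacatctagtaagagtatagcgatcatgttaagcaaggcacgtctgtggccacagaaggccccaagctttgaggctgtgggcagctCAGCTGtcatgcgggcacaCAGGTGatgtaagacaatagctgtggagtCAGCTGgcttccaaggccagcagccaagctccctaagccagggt
Chrng: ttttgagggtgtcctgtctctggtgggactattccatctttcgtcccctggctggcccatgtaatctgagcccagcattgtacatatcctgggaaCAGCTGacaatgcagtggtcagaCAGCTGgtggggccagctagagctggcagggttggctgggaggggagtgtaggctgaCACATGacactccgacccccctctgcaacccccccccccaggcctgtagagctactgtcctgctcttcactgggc
Chrnb1: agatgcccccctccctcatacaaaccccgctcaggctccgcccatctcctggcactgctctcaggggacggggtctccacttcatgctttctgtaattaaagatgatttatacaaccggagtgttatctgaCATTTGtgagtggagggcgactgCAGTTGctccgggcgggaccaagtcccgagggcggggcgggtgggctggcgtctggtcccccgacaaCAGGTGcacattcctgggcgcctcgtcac
Chrne: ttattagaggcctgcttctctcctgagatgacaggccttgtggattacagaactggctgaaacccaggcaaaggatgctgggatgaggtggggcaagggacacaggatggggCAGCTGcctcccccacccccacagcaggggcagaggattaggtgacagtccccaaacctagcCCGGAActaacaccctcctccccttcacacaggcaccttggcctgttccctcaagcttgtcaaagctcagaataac

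Chrna1, Chrng and Chrnb1 each held 3 E-boxes. In Chrna1 and in Chrng 2 of the 3 were CAGCTG, starting at -92 and -44 in Chrna1 and at -155 and -132 in Chrng, counted in bases from the start. None of the Chrnb1 matches was CAGCTG. Chrne held 1 E-box, a CAGCTG at -138, and 1 N-box at -76, the only N-box in the windows of these 6 genes. Musk held 3 E-boxes, of which the one at -68 was CAGCTG, and the 2 windows of Dok7 held 1 E-box and none. A match of letters is a description of the window and does not show that a factor binds there.

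**Figure D3:**
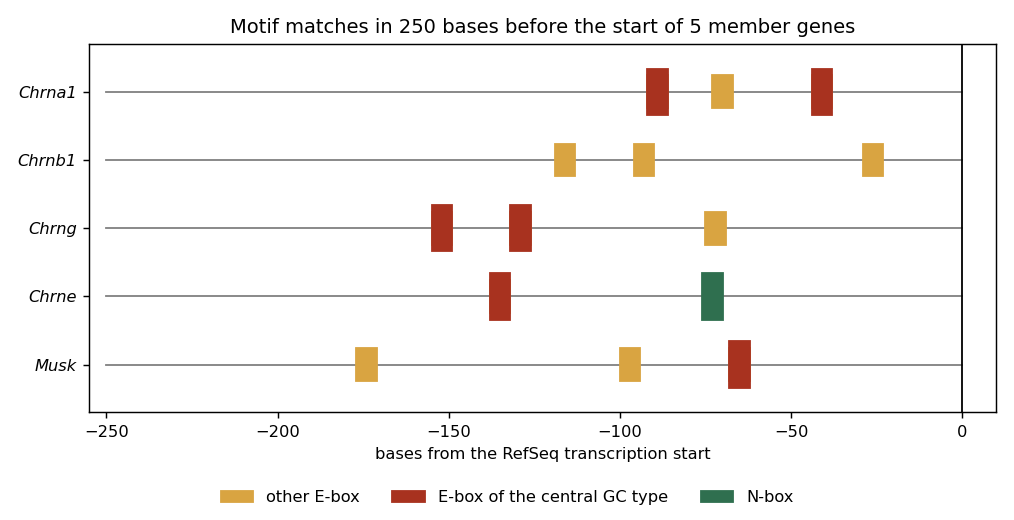
Each line is the 250 bases before the RefSeq start of 1 gene, with the start at 0 on the horizontal axis in bases. Boxes are matches on either strand: red for CAGCTG, yellow for any other E-box and green for the N-box. Chrna1 and Chrng each carry a pair of red boxes, Chrnb1 carries yellow boxes only, and the green box appears in Chrne alone among the 5 genes drawn.

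Lrp4 encodes the agrin receptor of the muscle membrane. Its probe (chr2:91353566-91353625, plus strand) read 0.49, -0.15, 0.23 and -0.27 on basal arrays and 1.35, 1.67, 1.74 and 1.51 on injured arrays. All injured arrays were higher than all basal arrays. The rise was 1.49 ± 0.19 (limma adjusted p = 0.000283), or 2.81-fold, and 2.21 in the authors' deposited table.

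Musk encodes the receptor kinase that acts with Lrp4. Its brighter probe (chr4:58386538-58390272, plus strand, bases spread over 3735) read 0.20, -0.03, 0.68 and 0.99 on basal arrays and -0.46, -0.41, -0.02 and -0.15 on injured arrays. The ranges met, since injured 3 lay just above basal 2. The difference of -0.72 ± 0.23 passed the threshold (limma adjusted p = 0.0265), but the call was lost without basal 3 (adjusted p = 0.0626), basal 4 (0.0531), injured 1 (0.0712) or injured 2 (0.0685), each by limma, and in the authors' deposited table (-0.14, adjusted p = 0.849). Without basal 1 and basal 2 the difference was -1.09 and the call was kept (limma adjusted p = 0.00182). The second probe (chr4:58387070-58387129) read -0.77, -0.83, -0.79 and -1.66 on basal arrays and -2.30, -1.89, -1.81 and -2.08 on injured arrays. On that probe the groups lay apart, with basal 4 the lowest basal array, and the fall was -1.01 ± 0.23 (limma fit over single probes, adjusted p = 0.00536). The difference between Lrp4 and Musk within arrays grew by 2.21, a pair also picked after its values had been seen.

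Rapsn encodes rapsyn, the protein that anchors receptors to the cytoskeleton. Its probe (chr2:90885826-90885885, plus strand) read 2.19, 2.04, 2.15 and 2.20 on basal arrays and 2.25, 2.20, 2.11 and 2.03 on injured arrays. The groups overlapped fully, with a difference of 0.00 ± 0.11 (limma adjusted p = 0.987). Its sign depended on the scaling: the difference was -0.31 after normexp with quantile normalization, where it was called lower (adjusted p = 0.00794), and 0.79 in the authors' deposited table.

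Dok7 encodes the adaptor that binds Musk inside the cell. Its probe (chr5:35430414-35430473, plus strand) was not well above background on any array, with -5.17 to -4.79 on basal and -4.99 to -4.02 on injured arrays. No fold is given for it.

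Leaving out injured 2, 3 and 4, the arrays where Xist was highest, left 1 injured array, which was assumed to vary like the basal ones. Chrng (higher) and Chrnb1 (lower) were then still called by limma, whereas Chrna1 (1.89, adjusted p = 0.112), Chrnd (4.30, adjusted p = 0.0977), Lrp4 (1.27, adjusted p = 0.0796) and Musk (-0.92, adjusted p = 0.206) were not. The directions of the tested genes other than Rapsn and Chrne held under each alternative that tested them; Chrnd was not among the genes above background on all 8 arrays and has no value there.

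The profiles of Chrna1 and Chrng over the 8 arrays were the closest pair among the 8 tested genes, with a root mean square difference of 0.33 between log2 values centred on each gene's mean. Chrng and Lrp4 followed at 0.45 and Musk and Rapsn at 0.47, and the widest distance was 3.19, between Chrnb1 and Chrnd. Among all genes tested, Frrs1 (0.15), Slc29a2 (0.15) and Prelid1 (0.15) ran closest to Chrna1, and the neuronal tubulin gene Tubb3 (0.17), Sh3rf1 (0.18) and the kinesin gene Kif15 (0.20) closest to Chrng. For Chrnd they were Atp1b1, a subunit of the sodium pump (0.34), Msln (0.38) and the cyclin gene Ccna2 (0.38).

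Chrnb1 ran closest to the lysosomal membrane gene Lamp2 (0.072), Use1 (0.099) and Tshz3 (0.11). Lrp4 was nearest to Cdk2ap1 (0.13), Aifm1 (0.13) and the gamma-tubulin gene Tubg1 (0.13), and Musk to the fructose kinase gene Khk (0.12), Pifo (0.13) and Sytl2 (0.14). For Rapsn, nearly flat on these arrays, they were the hexokinase gene Hk1 (0.059), Muc5ac (0.071) and Trmt1 (0.073). The profile of Chrne, set by the low basal 3 value, was closest to that of the erythroid gene Alas2 (0.29), then AA987161 (0.38) and Sdcbp2 (0.39). These are distances over 8 arrays of which 4 share a slide and a condition.

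Other genes of the synapse were counted in lists, to be read against the 35.4% of all genes called higher and 24.7% called lower. Where a gene was not above background on any array of a group, its fold is given against a floor. Such a gene passed the filter on dim probes only through the group where it was brighter, so its call is given as a description. Each dim array was set at no less than its dimmest probe above background. Some values not above background lie over that floor: Chrne read -2.95 on injured 3, where the floor was -3.14. The fold is therefore not a strict bound, and the limma p beside it tests the measured difference. The 5 receptor glycosylation genes act in sugar supply or N-glycan assembly and cause congenital myasthenia when mutated. All 5 genes were called higher by limma, beside 35.4% of all genes, with a median difference of 0.67 beside 0.17. They included Gmppb (1.14), which makes GDP-mannose, Dpagt1 (0.94), which starts N-glycan assembly, Alg14 (0.67) and Gfpt1 (0.64), the entry enzyme of the hexosamine pathway. Only 1 of the 5 was called in the authors' deposited table, where Gmppb (-0.19) and Dpagt1 (-0.54) had the opposite sign.

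Of 20 tested genes of agrin and Musk signalling, 10 were higher and 3 lower (median 0.43), beside 35.4% and 24.7% of all genes. The kinase gene Pak1 (2.49), the casein kinase subunit gene Csnk2b (1.24), the cytoskeletal linker gene Macf1 (0.99) and the cortactin gene Cttn (0.96) rose. Pak1 was above background on only 2 basal arrays and passed the filter through the injured arrays alone. The size of its rise rests in part on values not above background. Clasp2 (-1.22), whose product captures microtubules at the endplate, fell, although its sign turned in the authors' deposited table (0.08), and Agrn, the gene of agrin itself, fell by 0.72. Of the 20 genes, 4 were called higher and 0 lower in that table.

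Of 10 tested genes that control synaptic transcription, 4 were higher and 3 lower (median 0.67), near the 35.4% and 24.7% of all genes. Myog, the gene of myogenin, rose by 4.09 ± 0.71 (limma adjusted p = 0.00128). Its level was 0.03 and -0.20 on basal 1 and 2 and -3.11 and -2.12 on basal 3 and 4, so the basal arrays with Chrnd above background were also those with the higher Myog. The same 2 arrays had the higher endothelial genes named above and the higher Xist, and the part of any of these in the Chrnd values was not tested. Myod1 rose by 0.77, and so did the subunits of the N-box binding factor GABP, Gabpb1 (0.85) and Gabpa (0.59, with the sign turned to -0.06 when all probes of the gene were averaged). The histone deacetylase gene Hdac4 fell (-3.74, or -1.89 with normexp), a size that rests on values not above background on 3 injured arrays. The myogenic factor gene Myf6, not above background on any injured array, was 2.02-fold lower against the floor. Its measured means were -2.18 and -3.83 (limma adjusted p = 0.000187), but its difference was 0.26 in the authors' deposited table.

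Of 18 genes of the synaptic matrix and scaffold, 8 were higher and 8 lower (median -0.15), beside 35.4% and 24.7% of all genes. Col13a1, a transmembrane collagen of the endplate, was not above background on any basal array and was 3.08-fold higher against the floor. Its measured means were -4.90 and -1.56 (limma adjusted p = 4.06e-06). The intermediate filament gene Nes (2.46), the syntrophin gene Sntb1 (2.04) and the dystrobrevin gene Dtna (1.49) rose. Of the laminin chain genes of the synaptic basal lamina, Lamb2 fell (-2.57). Lama4, not above background on any injured array, was 6.13-fold lower against the floor (measured means -0.50 and -3.78, limma adjusted p = 0.000115). The authors' deposited table gave 4 higher and 4 lower.

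Of the 11 nicotinic subunits of other receptors, 7 were below background on all arrays and 3 were tested. Chrna6 rose by 1.18. Chrna7, not above background on any injured array, was 3.29-fold lower against the floor (measured means -1.48 and -4.08, limma adjusted p = 0.000348). Neither Chrna6 nor Chrna7 was called in the authors' deposited table. Of 8 tested genes known to rise in denervated muscle, 5 were higher and 2 lower (median 0.91), beside 35.4% and 24.7% of all genes. Ankrd1 (2.07), Fgfbp1 (1.38), the perinatal myosin gene Myh8 (1.04) and Cdkn1a (1.03) rose, although Fgfbp1 (-0.84) and Myh8 (-0.74) had the opposite sign in the authors' deposited table, while Gadd45a fell (-1.60). With all its probes averaged, Cdkn1a was 0.16 and not called (limma adjusted p = 0.56). Its call was also lost with quantile normalization, with the replicate block, and without basal 3, injured 3 or injured 4. Ampd3, not above background on any injured array, was 10.9-fold lower against the floor (measured means 0.26 and -3.83, limma adjusted p = 4.42e-05). That call was lost in the authors' deposited table (-1.38, adjusted p = 0.0611). Omitting basal 3 reduced the higher genes of this list to 3, and omitting injured 3 or injured 4 reduced them to 2. Quantile normalization, with normexp or without, and the mean of all probes gave 3, and the authors' deposited table gave 2 higher and 1 lower. Leaving out injured 2, 3 and 4 together left 2 higher in the denervation list, 1 in the matrix list and 0 in each of the other 4 lists, where limma rested on 1 injured array.

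**Figure D4:**
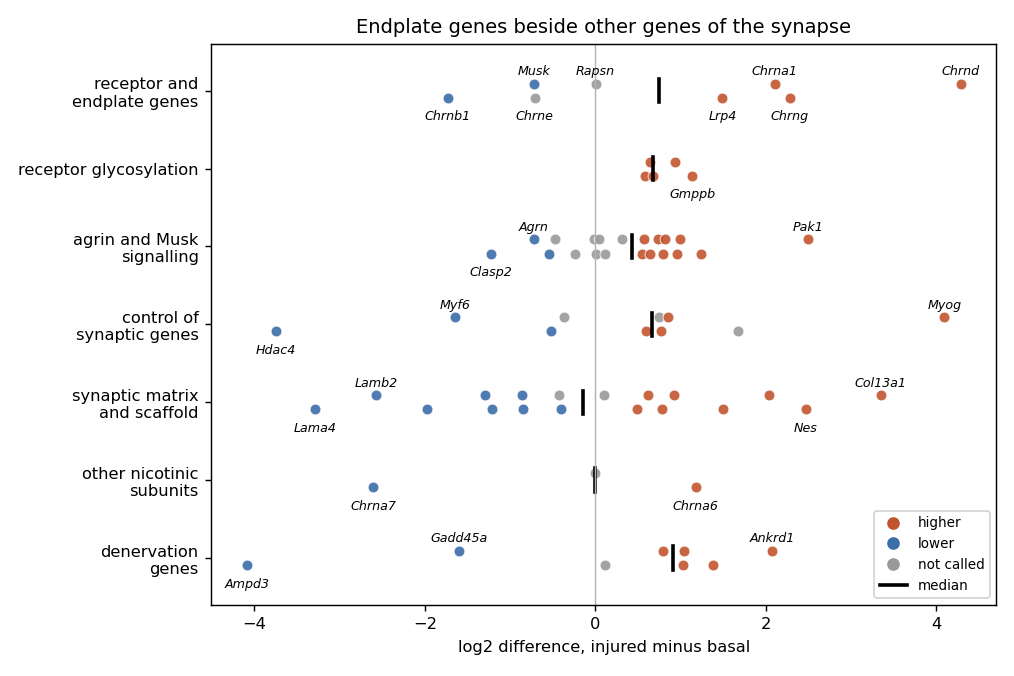
Points are the log2 differences, injured minus basal, of the tested genes in the receptor and endplate set and in 6 other lists of synaptic genes, coloured by the limma call. The black bar is the median of each list, and points are shifted vertically only to keep them apart. Col13a1, Lama4, Myf6, Chrna7 and Ampd3 are drawn at their measured difference, with 1 group not above background. The receptor and endplate genes spread from -1.73 for Chrnb1 to 4.29 for Chrnd, and the 5 glycosylation genes all lie to the right of 0.

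Markers of other cells were measured beside these genes, and their part in the results was not tested. Their counts stand beside 35.4% of all genes called higher and 24.7% lower. The myotube list had 8 of 10 tested genes higher and 0 lower, with a median difference of 3.40. Its summed signal relative to the 75th percentile was 49.8 to 93.8 on basal and 74.9 to 162 on injured arrays. That sum leans on its brightest gene, Des, which was not called (means 5.95 on basal and 5.68 on injured arrays). The mature fibre list had 4 of 9 higher and 2 lower, with summed signals of 44.4 to 72.0 and 169 to 213, while the fast myosin genes Myh1, Myh2 and Myh4 were each above background on at most 1 array. The satellite cell list had 6 of 8 lower and 1 higher, with sums of 155 to 272 on basal and 36.5 to 39.6 on injured arrays.

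Schwann cell markers, a sign of nerve in the sort, had 3 of 6 lower and 1 higher, with summed signals of 10.3 to 37.2 on basal and 8.42 to 12.1 on injured arrays, basal 1 being the highest. Endothelial genes had 1 of 5 higher and 1 lower (22.5 to 39.1 and 9.19 to 11.5), with a median difference of -2.38 that was -0.34 without basal 1 and basal 2. Cdh5 and Emcn were above background on basal 1 and basal 2 alone, and Vwf was higher there (0.83 and 1.42) than on basal 3 and 4 (-2.30 and -2.19). Macrophage genes had 0 of 5 higher and 1 lower (473 to 540 and 492 to 584), and fibroadipogenic genes had 0 of 4 higher and 4 lower (55.9 to 85.0 and 6.40 to 9.22). Itgam, the gene of CD11b, which the sort removes, read 8.74 to 9.09 and Csf1r 5.15 to 5.60 over all 8 arrays. The macrophage genes Lyz2 and C1qa were each above background on at most 1 array. Most of the macrophage sum on every array therefore came from Itgam. Among fibroadipogenic genes Dcn read 3.86 to 4.79 on basal arrays and was above background on 1 injured array, Col3a1 was above background on all 8, and Pdgfra on none. Ly6a, which encodes Sca1, read 1.34 and 0.07 on basal 1 and 2 against -3.30 and -3.49 on basal 3 and 4.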

How the data were processed

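Spot intensity in the deposited scanner files is the background-subtracted signal of Feature Extraction 10.7.3.1 (Agilent), per the file headers. The authors' deposited table holds normalized values that read as log2, with column medians of 8.05 to 8.16; the submitters' processing notes name limma, and no source used here gives the steps behind the table. It served as an alternative only. Its columns correlated with the log2 signal of their own arrays at 0.57 (basal 4) to 0.95 (basal 1). For injured 1, injured 3 and injured 4 another array correlated slightly better, as with 0.942 against 0.936 for injured 4. With group means removed, each column correlated best with its own array within its group, at 0.14 (injured 1) to 0.37 (injured 3). Of 59305 non-control spots per array, 1119 values marked uneven or as outliers over all arrays were left out, spots of a probe were averaged (55681 probes), and 0 were saturated. Probes were named by RefSeq accession, symbol or synonym. Each gene was represented by its probe of highest mean, and tested if well above background on at least 3 of 4 arrays of a group. limma 3.58.1 in R 4.3.3 compared the groups (lmFit and eBayes, two-sided, Benjamini-Hochberg over all genes, threshold 0.05), after a check on simulated data. Positions of probes come from the array files (mm9) and promoters from RefSeq (GRCm38.p6). The number of arrays limits the precision. Named genes were all 9 endplate genes with each probe, from every other list up to 4 called genes of largest size in the commoner direction and up to 2 in the other, and the 3 nearest profiles of each tested gene. The genes and lists were chosen with earlier results of these data known. Alternatives changed normalization, background correction, scaling, filter, probe choice, variance model, array weights, the replicate block and the arrays used.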

Additional observations from a re-analysis of the deposited data

Results flagged for a closer look

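Of 116 groups of 4 arrays checked for a value far from the other 3, 7 stood out, and chance gives about 1 in 20. The second probe of Musk was low on basal 4 (-1.66), with a gap of 0.935 of the range of the basal arrays, so the fall of Musk on that probe has 1 basal array near the injured ones. The difference of Chrng and Chrne within arrays was high on basal 3 (a gap of 0.864 of the range), the array where Chrne was not above background. Agrn was high on basal 4 (4.27, gap 0.834) and Gabpa low on injured 4 (0.23, gap 0.897). The summed Schwann cell markers were high on basal 1 (37.2, gap 0.966), and the summed fibroadipogenic markers high on injured 4 (9.22, gap 0.888). The summed Xist and Y chromosome genes were low on injured 1 (4.02, gap 0.864), where Xist was below its level on injured 2, 3 and 4.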

How the results depend on the processing

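The count of higher genes was 4 in the main comparison and 3 to 4 in every alternative but 1. With injured 2, 3 and 4 left out together it was 1, and the count of lower genes was 1. The count of lower genes was 2 in the main comparison and 0 in the authors' deposited table. With 1 array left out at a time the counts ranged over 4 to 4 higher and 1 to 2 lower, and they were 4 and 2 without basal 1 and basal 2. Without those 2 basal arrays the differences were 2.66 for Chrna1, 2.56 for Chrng, 1.59 for Lrp4 and -1.73 for Chrnb1. The difference of Chrne turned to 0.11 in the authors' deposited table and to 0.21 without basal 1 and basal 2. That of Rapsn, 0.00 in the main comparison and 0.79 in the authors' deposited table, was -0.20 with quantile normalization, -0.13 with normexp and the 75th percentile, -0.31 with normexp and quantile normalization, and -0.060 when scaling used only the probes detected on all 8 arrays. It was also -0.028 without basal 1 and basal 2, and its values with 1 array left out ranged from -0.034 to 0.042. The cause of these changes was not tested. The count of lower genes was 3 with normexp and quantile normalization. Of the 30 genes named from the other lists, 14 kept their call in the authors' deposited table and 8 with injured 2, 3 and 4 left out.

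The replicate numbers showed no clear pairing of the samples: the deviations of same-numbered arrays correlated at 0.00, 0.04, 0.00 and 0.09. The same-numbered array was the closest for basal 2 and basal 4 only, and such low correlations cannot settle whether samples were paired. With the replicate block, 4 genes were higher and 2 lower, Musk had an adjusted p of 0.015 by limma, and 3 denervation genes in place of 5 were higher. Slide could not be fitted as a block, since each slide held 1 group. Signal over background limits Chrnd and Pak1 on 2 basal arrays each, Chrne on basal 3 and all injured arrays, and Dok7 throughout. It also limits Hdac4 on 3 injured arrays, Col13a1 on all basal arrays, and Lama4, Chrna7, Ampd3 and Myf6 on all injured arrays.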
